A study of Mus musculus with 2 samples.

Results

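The transcripts described here encode the output arm of the circadian clock in the mouse left ventricle: the PAR bZIP factors Dbp, Tef and Hlf, their competitor Nfil3, the DEC repressors Bhlhe40 and Bhlhe41, and the nuclear receptor Rora. They were chosen by symbol, and all 7 were found among the 31920 rows of the deposited table. Polyadenylated RNA was sequenced from the left ventricle of male 129-SvEv mice aged 10 weeks, 1 wildtype and 1 labelled as a Lamp2 knockout, a genotype named for the X-linked gene of a lysosomal membrane protein. Each group therefore held 1 library, with 8410593 gene-assigned reads in wildtype and 8773820 in the other. No difference below has a replicate check, no test of the genotypes was made, and the 95% intervals given with ratios (exact conditional binomial) cover counting error only. The Lamp2 row held 990 and 986 reads, so its level does not check the genotype label, and the second library is called the knockout-labelled library. The labels give neither the hour at which the hearts were collected nor the part of Lamp2 that was removed. Differences due to genotype, to the hour of collection or to the single animal cannot be told apart.

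In the clock of mammalian cells, the CLOCK and BMAL1 proteins bind E-box elements and switch on their own repressors (the PER and CRY proteins) together with a second tier of transcription factors. DBP, TEF and HLF activate genes through D-box elements, and NFIL3 binds the same elements and represses. BHLHE40 and BHLHE41, also called DEC1 and DEC2, bind E-boxes and restrain CLOCK and BMAL1, while RORA activates through ROR elements, which the REV-ERB receptors Nr1d1 and Nr1d2 repress. In the heart, this output tier is known for carrying daily rhythm into metabolism and ion channel expression.

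The starts of these genes are shown first because several of the elements named above can be read in them. Of the 7 members, 6 had an entry among the RefSeq promoter windows of build GRCm38.p6, with 2 starts for Tef, and Bhlhe40 had none. The 250 bases before each start were searched on both strands for the E-box CACGTG, the D-box letters TTATGTAA and TTACGTAA, the core of ROR elements AGGTCA, and the cAMP response element TGACGTCA. No motif match overlapped another in the windows printed. Capitals mark the matches, and each sequence runs 5′ to 3′ on the strand of the gene. The windows of Tef (chr15:81802423-81802672 and chr15:81811164-81811413, plus strand), Bhlhe41 (chr6:145865421-145865670, minus strand) and Nfil3 (chr13:52981040-52981289, minus strand) are printed, as the ones holding an E-box or a ROR core:
Tef, upstream start: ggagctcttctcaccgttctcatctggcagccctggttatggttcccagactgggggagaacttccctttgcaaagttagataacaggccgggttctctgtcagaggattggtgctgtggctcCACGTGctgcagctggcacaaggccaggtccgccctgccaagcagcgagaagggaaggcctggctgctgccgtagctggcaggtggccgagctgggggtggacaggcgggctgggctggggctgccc
Tef, downstream start: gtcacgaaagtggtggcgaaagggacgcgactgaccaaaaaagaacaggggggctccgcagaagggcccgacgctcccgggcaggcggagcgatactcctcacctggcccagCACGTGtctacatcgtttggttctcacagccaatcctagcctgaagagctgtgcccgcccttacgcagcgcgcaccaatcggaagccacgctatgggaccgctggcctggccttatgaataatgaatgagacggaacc
Bhlhe41: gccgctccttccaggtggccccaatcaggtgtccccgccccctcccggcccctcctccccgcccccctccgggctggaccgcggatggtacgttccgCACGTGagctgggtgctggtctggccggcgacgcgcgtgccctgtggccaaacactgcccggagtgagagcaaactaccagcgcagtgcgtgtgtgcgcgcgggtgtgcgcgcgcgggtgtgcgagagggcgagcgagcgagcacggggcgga
Nfil3: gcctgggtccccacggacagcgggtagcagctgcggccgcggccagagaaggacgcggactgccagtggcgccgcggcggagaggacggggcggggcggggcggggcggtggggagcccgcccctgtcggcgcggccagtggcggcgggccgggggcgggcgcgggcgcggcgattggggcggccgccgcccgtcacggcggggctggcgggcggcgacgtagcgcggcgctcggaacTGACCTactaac

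The E-box began 127 and 138 bases before the upstream and downstream starts of Tef, and 153 bases before the start of Bhlhe41. Among all 32851 windows of this length in the RefSeq table, 6.02% held CACGTG. The Nfil3 window carried the ROR core on the opposite strand, beginning 12 bases before the start, and 14% of all windows held AGGTCA. The window of Hlf held the cAMP response element 9 bases before its start, which 1.55% of windows held. None of these 5 letter strings was in the windows of Dbp and Rora, and neither D-box spelling was in any member window, against 0.819% and 0.113% of all windows. Nfil3 had the most GC-rich of the member windows, at 81.6% G or C, above 99.3% of all windows. A match describes letters only, and no match says nothing of sites outside these windows.

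**Figure D1:**
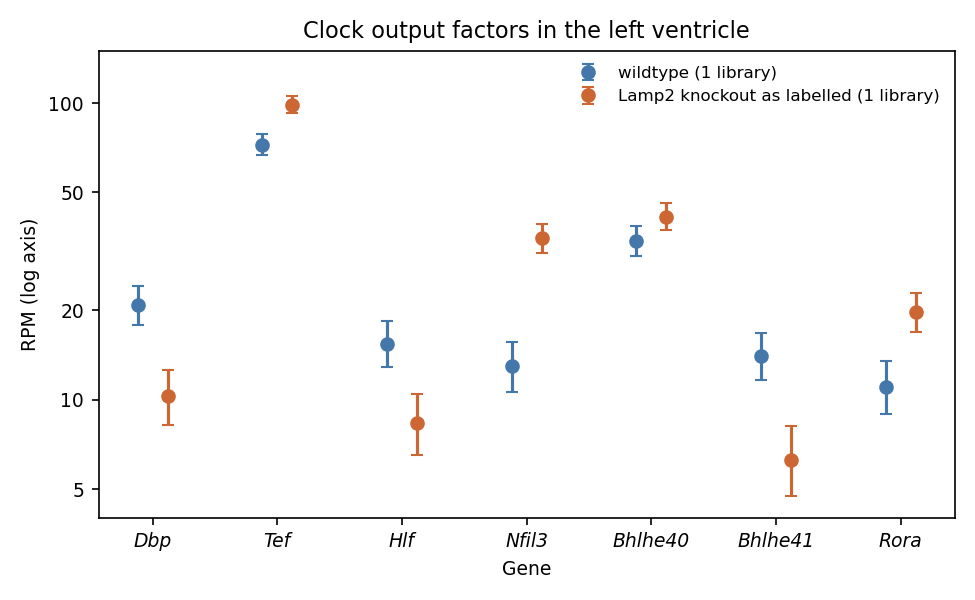
Level of each gene in reads per 1000000 reads assigned to genes (RPM, log axis) in the wildtype library and in the knockout-labelled library; bars are exact Poisson 95% intervals, which cover counting error only. Dbp, Hlf and Bhlhe41 sit lower in the knockout-labelled library (10.3, 8.32 and 6.27 RPM) and Nfil3 and Rora sit higher (35.0 and 19.7 RPM), while Tef and Bhlhe40 differ less.

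The PAR bZIP factors did not differ in one direction. Dbp, the D-box activator named for the albumin promoter, was counted at 175 reads in wildtype and 90 reads in the knockout-labelled library. These correspond to 20.8 and 10.3 RPM, a ratio of 0.493 (0.378 to 0.639). Hlf, the hepatic leukemia factor, was likewise lower, with 130 against 73 reads, or 15.5 against 8.32 RPM (ratio 0.538, 0.398 to 0.722). Tef, the thyrotroph embryonic factor and the most abundant of the 7 by reads, was higher in the knockout-labelled library, with 609 against 866 reads, or 72.4 against 98.7 RPM (ratio 1.36, 1.23 to 1.51). Because Tef supplied most PAR bZIP reads, the level of the 3 factors summed by reads was 109 and 117 RPM in the wildtype and knockout-labelled libraries. This ratio of 1.08 had an interval (0.986 to 1.18) that included 1. Per kilobase of summed exons, Tef was at 9.20 and 12.5 RPM, Dbp at 6.95 and 3.43, and Hlf at 2.31 and 1.25. The side of 1 on which a total lies therefore depends on the use of gene length, and also on how the libraries are scaled. Dbp and Hlf together stood at 36.3 and 18.6 RPM, a ratio of 0.512 (0.421 to 0.622). In a bulk sample, fewer cells expressing a gene and less RNA per cell cannot be told apart.

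The Dbp row lies on the plus strand of chromosome 7 from 45705247 to 45710203 (build mm10). Its last 741 bases overlap the end of Sphk2, a sphingosine kinase gene on the opposite strand, and 18.0% of Dbp exon bases in the GENCODE M21 annotation are also Sphk2 exons. Whether the authors' counting used strand is not given in the sources used here, so reads in this stretch may belong to either gene. Sphk2 differed in the other direction, at 28.9 RPM in the wildtype and 35.4 RPM in the knockout-labelled library (ratio 1.23, 1.03 to 1.46). Hlf, from 90336535 to 90390917 on the minus strand of chromosome 11, had no overlapping row in the table, and neither had Tef, from 81802673 to 81826863 on the plus strand of chromosome 15. In GENCODE M21, the opposite-strand gene Gm17597 overlaps the first 193 bases of Tef.

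Nfil3, the bZIP repressor that competes with the PAR factors for D-boxes, had the highest ratio of the members. Wildtype held 109 of its reads and the knockout-labelled library 307, or 13.0 and 35.0 RPM, a ratio of 2.70 (2.16 to 3.39). The gene lies on the minus strand of chromosome 13 from 52967209 to 52981039, and no other row overlaps it. The competitor and the activators therefore stood in a different proportion in each library, a comparison that does not depend on how the libraries are scaled. Nfil3 had 0.623 reads for each Dbp read in the wildtype and 3.41 in the knockout-labelled library, a ratio of ratios of 5.48 (3.86 to 7.77). Against Hlf the ratio of ratios was 5.02 (3.44 to 7.31), and against Tef it was 1.98 (1.55 to 2.55).

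The DEC repressors differed from each other. Bhlhe40, the more abundant one, was counted at 288 reads in wildtype and 363 reads in the knockout-labelled library, or 34.2 and 41.4 RPM (ratio 1.21, 1.03 to 1.42). Its interval included 1 after each of 3 rescalings of the libraries, by the median ratio (1.11, 0.952 to 1.31), by a trimmed mean of log ratios (1.11, 0.947 to 1.30) or by a total that leaves out mitochondrial transcripts and the 10 most abundant other genes (1.06, 0.909 to 1.25). Bhlhe41 was the member with the lowest ratio, with 118 against 55 reads, or 14.0 against 6.27 RPM (ratio 0.447, 0.318 to 0.620). Bhlhe40 thus had 2.44 reads for each Bhlhe41 read in the wildtype and 6.60 in the knockout-labelled library, a ratio of ratios of 2.70 (1.87 to 3.93). Summed by reads, the DEC factors were at 48.3 and 47.6 RPM in the same order (ratio 0.987, 0.859 to 1.13). The difference between them is not visible in this total, to which Bhlhe40 gave most reads. A total per length would weigh them otherwise. Per kilobase of exon inside the deposited rows, Bhlhe40 was at 7.28 and 8.79 RPM and Bhlhe41 at 6.99 and 3.12 RPM.

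Both DEC genes lie on chromosome 6, Bhlhe40 from 108660629 to 108666925 on the plus strand and Bhlhe41 from 145862737 to 145865340 on the minus strand. The first 306 bases of Bhlhe40 overlap an opposite-strand row that held 26 and 21 reads. The Bhlhe41 row is shorter than the gene in GENCODE M21, which extends from 145858243 to 145865558, and the gene Gm43909 of that annotation overlaps it on the opposite strand.

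Rora, the receptor that activates through ROR elements, was higher in the knockout-labelled library. Its reads numbered 93 in wildtype and 173 in the other library, or 11.1 and 19.7 RPM (ratio 1.78, 1.38 to 2.32). The gene spans 68653802 to 69379028 on the plus strand of chromosome 9, and the 4 small rows inside it held at most 1 read in either library. In GENCODE M21, the gene Gm15511 overlaps Rora on the opposite strand. Its relative Rorb had 19 reads in wildtype and 41 in the knockout-labelled library, under the minimum set below, and a ratio of 2.07 (1.17 to 3.77). The REV-ERB genes act on the same elements in the opposite sense. Without rescaling they stood closer to 1, at 0.973 (0.882 to 1.07) for Nr1d1 and 1.10 (0.930 to 1.30) for Nr1d2. The rescalings divide these ratios by 1.084, 1.090 or 1.136. Each would put the upper bound of Nr1d1 (1.073) below 1, while the interval of Nr1d2 would still include 1. Rorb, Nr1d1 and Nr1d2 were named for their relation to Rora after their values were seen. The Nr1d1 row, with 813 and 825 reads, is overlapped on the opposite strand by a row that held 1036 and 921 reads. Reads in that overlap may belong to either row.

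**Figure D2:**
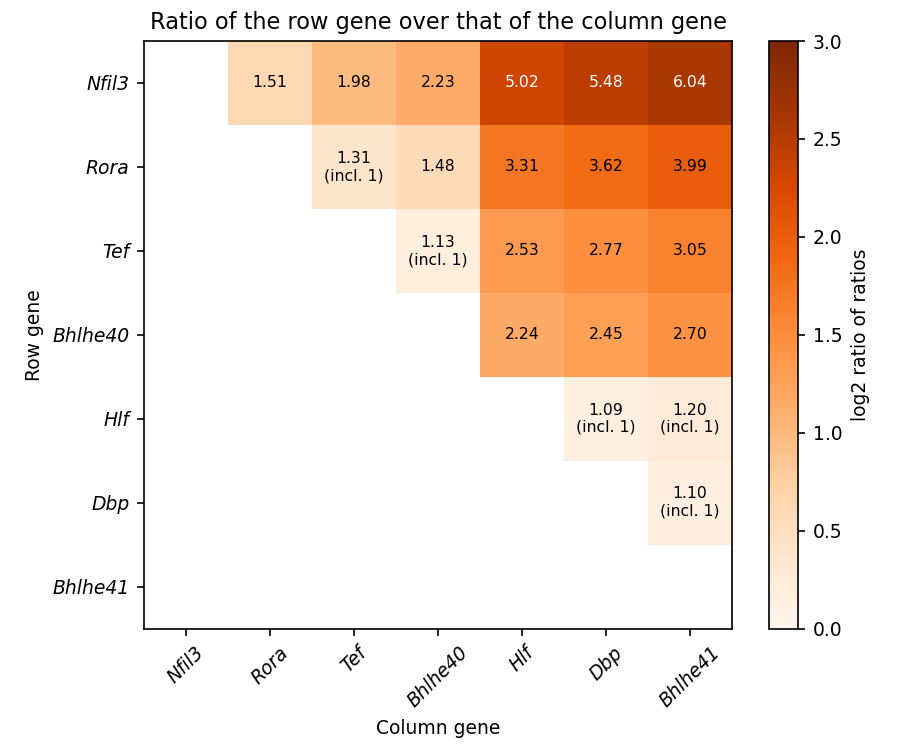
Ratio of the knockout-labelled over the wildtype reads of the row gene, divided by the same ratio of the column gene, for the 21 pairs of members; color gives its log2 value, and "incl. 1" marks the 5 pairs whose 95% counting interval includes 1. Nfil3 stands apart from all other members, and Hlf, Dbp and Bhlhe41 form a block whose mutual values are 1.09 to 1.20.

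Over all 21 pairs of members, the 95% interval of the ratio of ratios, not adjusted for the number of pairs, excluded 1 for 16. The 5 pairs whose interval included 1 were Tef with Bhlhe40 (1.13, 0.932 to 1.36), Rora with Tef (1.31, 0.989 to 1.74), and the 3 pairs among Dbp, Hlf and Bhlhe41. For these last, the values were 1.09 (0.730 to 1.63) for Hlf over Dbp, 1.10 (0.719 to 1.70) for Dbp over Bhlhe41 and 1.20 (0.767 to 1.90) for Hlf over Bhlhe41. The intervals of these 3 pairs are wide because each gene had at most 175 reads, and they do not show that the genes behaved alike. The largest value was that of Nfil3 over Bhlhe41, at 6.04 (4.03 to 9.08). Rora and Nfil3, the members with the highest ratios, differed by 1.51 (1.07 to 2.14).

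**Figure D3:**
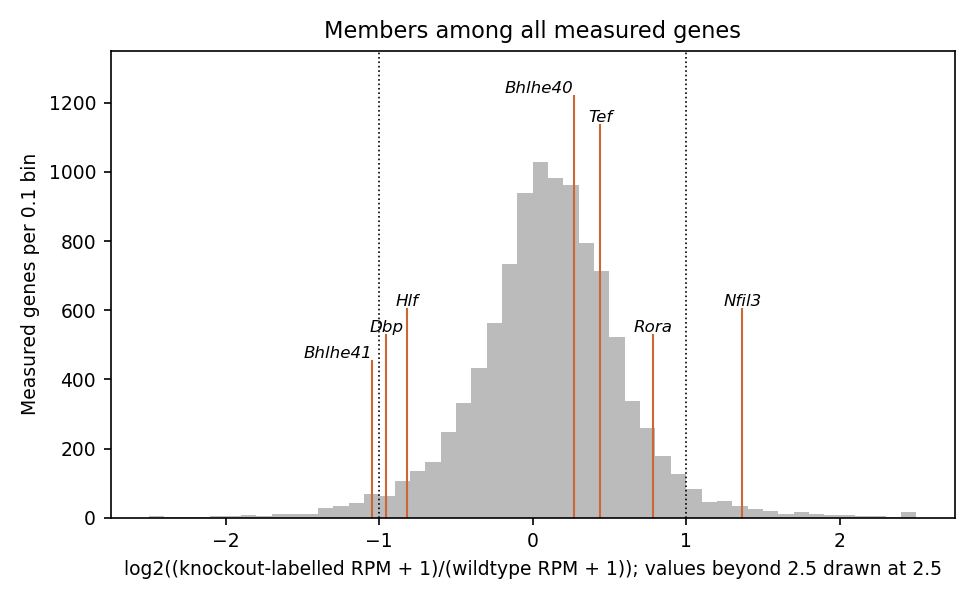
Histogram of log2((knockout-labelled RPM + 1)/(wildtype RPM + 1)) over the 10209 measured genes, with the members as vertical lines (line height carries no meaning) and dotted lines at the 2-fold rule. Nfil3 and Bhlhe41 lie beyond the rule, Dbp just inside it, and Bhlhe40 and Tef within the main body.

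For a count on the same rule as the rest of the transcriptome, a level of 5 RPM or more in either library made a gene measured, and a log2 ratio of 1 or more in size, with 1 RPM added to both levels, made it called. All 7 members were among the 10209 measured genes. Nfil3 was called higher, against 3.35% of measured genes, and Bhlhe41 was called lower, against 2.37%. The call of Bhlhe41 ended with 5 RPM added to both levels and with a minimum of 20 RPM. The log2 ratio of Dbp was −0.95, just inside the rule because of the added 1 RPM, and Dbp was called lower after each of the 3 rescalings and with 0.1 RPM added. At a 1.5-fold rule, Nfil3 and Rora were called higher, against 12.8% of measured genes, and Dbp, Hlf and Bhlhe41 were called lower, against 7.3%. Among the 6255 measured genes with a mean level inside the range of the members (10.1 to 85.6 RPM), 17.3% passed the 1.5-fold rule in either direction. A ratio of 1 lay outside the counting interval for each of the 7 members, but also for 51.7% of measured genes. The members had a median log2 ratio of 0.27, beside 0.11 over all measured genes. In the ranking by log2 ratio, 143 genes including Nfil3 itself were at least as high, and 205 genes including Bhlhe41 were at least as low.

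The genes nearest to each member in both log2(RPM + 1) levels, by Euclidean distance over the 2 libraries, give an idea of how common such a pair of levels was. Gpr125 and Runx1t1 had exactly the levels of Hlf. Rnf207, at 20.7 and 10.3 RPM, and Hdac9 were nearest to Dbp, and Six4, at 14.0 and 6.38 RPM, and Ptplad1 were nearest to Bhlhe41. Axl and Csnk1d, a kinase gene of the core clock list, were nearest to Tef, Gcsh and an unnamed cDNA clone row to Bhlhe40, and Scly and Casc4 to Rora. Nfil3 had the most distant neighbours, Bmp4 at 13.0 and 37.3 RPM and Bloc1s6 at 13.7 and 33.5 RPM. Likeness over 2 libraries is a description of 2 values per gene.

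Compared per kilobase of exon, the order of the members was not the same in both libraries. With the summed exons of all GENCODE M21 transcripts as length, the order in the wildtype was Tef at 9.20, Bhlhe40 at 7.28, Dbp at 6.95, Nfil3 at 6.40, Hlf at 2.31, Bhlhe41 at 2.09 and Rora at 0.846 RPM per kilobase. In the knockout-labelled library, Nfil3 came first at 17.3 RPM per kilobase, before Tef at 12.5 and Bhlhe40 at 8.79, while Dbp was at 3.43, Rora at 1.51, Hlf at 1.25 and Bhlhe41 at 0.933. Nfil3 made up 25.7% of the per-length level of the 4 D-box factors in the wildtype and 50.1% in the knockout-labelled library, and the share of Dbp was 28.0% and 9.94%. The order between genes depends on the length used. With the longest transcript, Tef stayed first in the knockout-labelled library at 22.4 against 17.3 RPM per kilobase for Nfil3, and the share of Nfil3 was 17.3% and 36.9%. With only the exons inside the deposited row, Bhlhe41 stood at 6.99 RPM per kilobase in the wildtype, next to Dbp at 7.34, Bhlhe40 at 7.28 and Nfil3 at 6.51. The deposited row of Rora covers only 3837 of its 13071 exon bases, so its last place in the wildtype depends on the length. On the row length, Rora stood at 2.88 RPM per kilobase in the wildtype, above Hlf at 2.31. In the knockout-labelled library it stood at 5.14, above Dbp at 3.62.

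**Figure D4:**
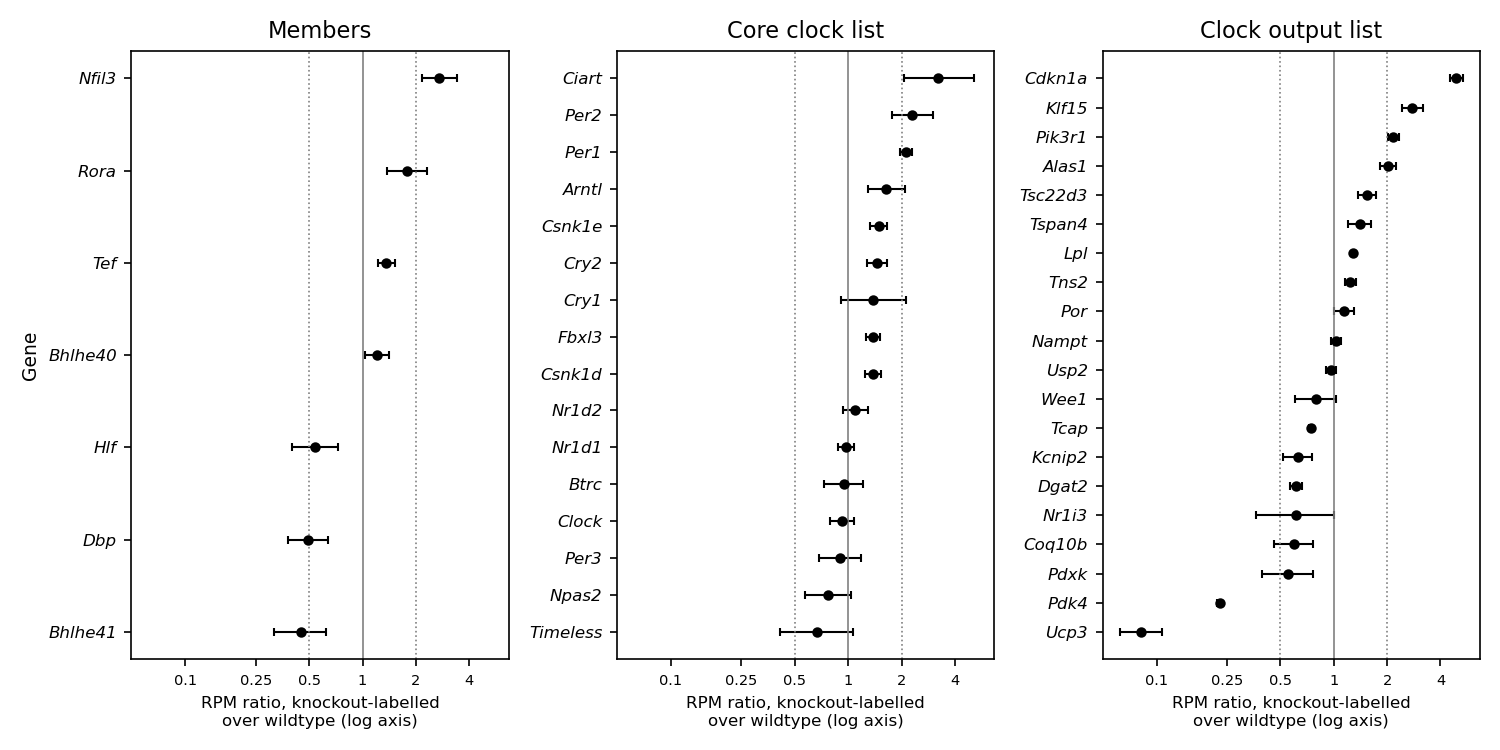
RPM ratio of the knockout-labelled over the wildtype library (log axis) with its 95% counting interval for the 7 members, the measured genes of the core clock list, apart from 1 not reported here, and those of the clock output list; the solid line marks a ratio of 1 and dotted lines 0.5 and 2. Within the core clock list the highest ratios are those of Ciart, Per2 and Per1, and the ratios of the output list run from Ucp3 at 0.0822 to Cdkn1a at 4.92.

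The core clock loop that drives these factors was represented by 20 genes, of which 17 were measured. On the 2-fold rule, 3 were higher, against the 3.35% of all measured genes given above, and 0 were lower. The median log2 ratio of the list was 0.46, beside 0.11 over all measured genes. The 3 genes were Ciart, a repressor of CLOCK and BMAL1, with 27 against 90 reads (ratio 3.20, 2.06 to 5.11), and the period genes Per2 at 2.29 (1.76 to 3.00) and Per1 at 2.11 (1.96 to 2.28). Per1 was not called after any of the 3 rescalings, and Per2 was not called with the trimmed mean or the reduced total. With 5 RPM added, Per1 alone was called. The Ciart row was called after each rescaling. It is overlapped on the opposite strand by a row that held 26 and 39 reads, and reads in the overlap may belong to either. Arntl, which encodes BMAL1, was at 12.8 RPM in the wildtype and 21.1 RPM in the knockout-labelled library, with 108 and 185 reads (ratio 1.64, 1.29 to 2.10). Among the other activators and period genes, named after their values were seen, the intervals of Clock, Npas2 and Per3 included 1 without rescaling. The rescalings divide these ratios by 1.084, 1.090 or 1.136. Each would put the upper bounds of Clock (1.078) and Npas2 (1.032) below 1, but not that of Per3 (1.183).

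Among the 20 genes of the clock output list, all of them measured, 4 were at least 2-fold higher and 2 lower, against 3.35% and 2.37% of all measured genes. Their median log2 ratio was −0.01, beside 0.11 over all measured genes. The higher ones were Cdkn1a, a cell cycle inhibitor, at ratio 4.92 (4.54 to 5.34), Klf15, a Krüppel-like factor of cardiac metabolism, at 2.78 (2.43 to 3.18), and, outside the naming rule, Pik3r1 at 2.17 and the haem synthesis gene Alas1 at 2.02. After each of the 3 rescalings only Cdkn1a and Klf15 were called higher. The lower ones were Ucp3, a mitochondrial carrier, at 0.0822 (0.0620 to 0.107), and the pyruvate dehydrogenase kinase gene Pdk4 at 0.227 (0.220 to 0.234). An opposite-strand row overlaps Ucp3. The list holds 4 genes linked to PAR bZIP factors in other tissues, named after their values were seen, and their ratios lay on both sides of 1. Alas1 had a ratio of 2.02 (1.83 to 2.24), and Por, the electron donor of cytochrome P450 enzymes, a ratio of 1.14 (1.01 to 1.30). Pdxk, which activates vitamin B6, had a ratio of 0.552 (0.396 to 0.763), and the xenobiotic receptor gene Nr1i3 a ratio of 0.610, with an interval (0.366 to 1.002) that included 1. These are values without rescaling. Division by any of the 3 factors (1.08, 1.09 or 1.14) would make the interval of Por include 1 and put that of Nr1i3 below 1.

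Defining cardiomyocyte markers were abundant in both libraries, with 8 of 8 measured and a summed level of 58171 RPM in the wildtype and 58294 RPM in the knockout-labelled library. The 5 endothelial markers summed to 504 and 535 RPM, and the 6 fibroblast markers to 505 and 455 RPM, of which Col1a1, Col3a1 and Lum were at least 2-fold lower. The other fibroblast markers were Dcn at ratio 1.04 (0.989 to 1.09), Pdgfra at 0.982 (0.848 to 1.14) and Tcf21 at 0.554 (0.367 to 0.824). Dcn alone supplied 379 and 393 RPM of the sum. The 5 smooth muscle and pericyte markers summed to 767 and 696 RPM, and 5 of 5 had a log2 ratio below 0 (median −0.43). Rgs5 alone supplied 608 and 567 RPM of that sum, at ratio 0.931, and the interval of Pdgfrb (0.864 to 1.09) included 1. The 5 macrophage markers summed to 48.0 and 59.3 RPM, with 3 of 3 measured members above a log2 ratio of 0, where the median over all measured genes was itself 0.11. These were Cd68 at ratio 1.99 (1.36 to 2.94), Csf1r at 1.20 (1.004 to 1.43) and Mrc1 at 1.02 (0.783 to 1.32). Among the macrophage markers not measured, Fcgr1 had 9 and 0 reads and Adgre1 8 and 24 reads. The 2 neutrophil markers found summed to 0.713 RPM in the wildtype and 10.7 RPM in the knockout-labelled library, nearly all of it S100a9. Of the 4 atrial markers, Myl7, Myl4 and Sln were at or under 2.26 RPM in both libraries, and Nppa, which the ventricle also expresses, was at 2868 and 10987 RPM. T and NK cell, adipocyte and Schwann cell lists each summed to 5.11 RPM or less, and no skeletal muscle (4) or red cell (2 found) list reached a 2-fold difference in any measured gene. Mitochondrial transcripts took 26.5% of reads in the wildtype and 16.2% in the knockout-labelled library, which bears on every RPM as a share of the total. The part of cell makeup and of the mitochondrial share in the members' differences was not tested.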

How the data were processed

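Left ventricle RNA of 1 wildtype and 1 Lamp2 knockout mouse, grouped by the genotype labels, was analysed from 1 deposited table. The submitters' processing notes name STAR and, as builds, mm10 and GRCm38; which tool counted reads, with which annotation and strand setting, is not given in the sources used here. Per the file headers, the authors deposited read counts per gene symbol, which are raw. RPM, also deposited, equals the count divided by the library total, times 1000000, within 5e-05. The authors' deposited fold ratio and p-value, whose method is not stated, were not used.

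The depth of 8410593 and 8773820 reads sets the counting error of each value. A count of 0 allows up to 3 reads, or 0.357 and 0.342 RPM. Without molecular identifiers, reads can be copies of one molecule, so intervals cover counting error only. With 1 library per group, no edgeR or other count model was fitted, and ratios of RPM carry exact conditional binomial 95% intervals. Ratios of ratios carry exact conditional intervals of the odds ratio. Genes were measured from 5 RPM in either library and called at a log2 ratio of at least 1 in size after adding 1 RPM. Deposited starts are given plus 1. The rule and the intervals were run on simulated Poisson counts. These have no spread between animals and no copied reads, so they check the computation only.

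The members and lists were chosen with earlier results of these data known. Named are all members, for each list the measured genes with the largest log2 ratios in size, up to 4, the 2 genes nearest to each member, and Lamp2; marker genes are named as needed to describe their lists, other exceptions are marked, and some genes of the lists are counted but not reported here. The core clock, clock output, C/EBP and bZIP, bHLH-Orange and ROR cofactor lists and 12 marker lists were used. Ciart, Tns2, Adgre1 and Hbb-bs were found under older symbols through the RefSeq table. Alternatives were an added 0.1 or 5 RPM, a minimum of 1 or 20 RPM or none, 1.5-fold and 3-fold rules, 3 rescalings, and other exon lengths. Python 3.11.15, numpy 2.4.6, pandas 2.3.3, scipy 1.17.1 and matplotlib 3.10.9 were used.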

Additional observations from a re-analysis of the deposited data

How the results depend on the processing

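No paired analysis was possible because each group held 1 library, and no library could be left out. All 7 members kept the side of 1 on which their ratio lay under the 3 rescalings, and the ratio left its counting interval only for Tef, at 1.20 with the reduced total (no mitochondrial transcripts or 10 most abundant other genes). The 1 member called lower became 2 (Dbp and Bhlhe41) with 0.1 RPM added and under each rescaling, 3 at 1.5-fold, and 0 with 5 RPM added, with a 20 RPM minimum or at 3-fold. The 1 member called higher became 2 at 1.5-fold and 0 at 3-fold. The 3 core clock genes called higher became 1 with 5 RPM added (Per1), 1 with the trimmed mean and 1 with the reduced total (Ciart in both), 5 at 1.5-fold and 0 at 3-fold. The 4 clock output genes called higher became 2 under each rescaling and 1 at 3-fold, and the 2 called lower became 6 at 1.5-fold. The rescalings divide the knockout-labelled levels by 1.08, 1.09 and 1.14, and over all measured genes they turn 342 higher and 242 lower calls (58.6% higher) into 244 and 308 (44.2%), 238 and 316 (43.0%), and 216 and 357 (37.7%). The per-length level of the highest over the lowest member was 10.9 in the wildtype and 18.5 in the knockout-labelled library. It was 16.2 and 21.9 with the longest transcript, and 4.11 and 14.1 with exons inside the deposited row, a length chosen after the data were seen. The members' own counts of 55 to 866 reads limit how closely each ratio is known, and the spread between animals is unknown.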

Other observations

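The closest bZIP relatives outside the clock, the C/EBP family and neighbouring stress factors, held 9 genes of which 8 were measured. On the 2-fold rule 2 of these were higher and 0 lower in the knockout-labelled library, against 3.35% and 2.37% of all measured genes, and the median log2 ratio was 0.55 beside 0.11 over all measured genes. Cebpd, a C/EBP factor of the acute-phase response, was counted at 155 reads in wildtype and 720 reads in the knockout-labelled library, or 18.4 and 82.1 RPM (ratio 4.45, 3.74 to 5.33). Cebpb, known from the same response, was at 162 and 336 RPM (ratio 2.07, 1.94 to 2.21). Jdp2, a bZIP repressor that binds AP-1 sites, had a ratio of 1.81 (1.45 to 2.27). Cebpg, which pairs with other C/EBP proteins, went the other way at 0.614 (0.460 to 0.817). The rows of Cebpb and Cebpd are overlapped on the opposite strand.

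The bHLH-Orange relatives of the DEC factors, the HES and HEY repressors of the Notch pathway, held 7 genes of which 4 were measured, with 2 at least 2-fold lower and 0 higher, against 2.37% and 3.35% of all measured genes. Hes1 was counted at 327 reads in wildtype and 125 reads in the knockout-labelled library, or 38.9 and 14.2 RPM (ratio 0.366, 0.296 to 0.452). Heyl was at 18.9 and 8.78 RPM (ratio 0.464, 0.349 to 0.613), while Hey1 was higher in the knockout-labelled library, at 1.70 (1.30 to 2.23), and Hes6 had a ratio of 1.03 (0.769 to 1.38). Of the 9 cofactors of ROR and REV-ERB receptors, all measured, 0 were 2-fold apart. Tbl1xr1, a subunit of the NCoR corepressor complex, had the largest ratio at 1.70 (1.48 to 1.95), and the coactivator gene Ncoa2 was at 0.826 (0.726 to 0.940). The acetyltransferase gene Ep300 had a ratio of 1.30 (1.14 to 1.47).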
